A study of Rattus norvegicus with 6 samples.

Results

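The brush border of the jejunal enterocyte was described here through 10 genes, 8 that build and anchor the microvillus (Vil1, Ezr, Myo1a, Espn, Pls1, Eps8, Cdhr2 and Cdhr5) and the cytoplasmic actins Actb and Actg1. The members were all probes, other than control spots, whose RefSeq accession on the array design belongs to one of these genes. This gave 9 probes of 41012, for 7 of the 10 genes. Actb and Ezr had 2 probes each, and Actg1, Vil1, Pls1, Espn and Cdhr5 had 1 each. No probe was matched to Myo1a, Eps8 or Cdhr2 by accession, so these 3 genes were not analysed here.

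Total RNA of the jejunum was measured on 1-colour Agilent rat arrays, with 3 arrays for the control group and 3 for the S3d group. Both groups were male Sprague-Dawley rats, 6 weeks old and weighing 200 ± 20 g, housed at 25°C. The S3d rats were stressed in a temperature shaker on 3 days, for 2 h per day, at 35°C and 0.1 × g, and the control rats were not stressed. The RNA of 3 rats was pooled for each array, out of 10 rats per group according to the labels, so each array counts as 1 replicate. The text of the study gives fewer rats per group than separate pools would need, so whether pools share rats is not known, and the p-values measure only the spread between these arrays.

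A microvillus is held up by a core of parallel actin filaments. Villin (Vil1), plastin 1 (Pls1, also called fimbrin) and espin (Espn) bundle these filaments, Eps8 sits at their tips, and ezrin (Ezr) and the motor myosin 1a (Myo1a) tie the bundle to the plasma membrane. The protocadherins Cdhr2 and Cdhr5 bind each other between neighbouring tips and pack the microvilli into the brush border of the absorptive cell. Beta-actin (Actb) and gamma-actin (Actg1) form filaments in nearly every cell type, and beta-actin was the reference gene of the RT-PCR in this study.

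RefSeq start site windows (GRCr8, from 250 bases before the start to 50 bases after it) were found for 8 of the 10 genes, not for Actb and Eps8. The windows of the 4 genes whose probes differed by more than 1.5-fold between the groups are shown here, written 5′ to 3′ along the gene, with the searched motifs in capitals. Actg1 lies on the minus strand at chr10:106120902-106121201, Cdhr5 on the minus strand at chr1:205811043-205811342, Espn on the minus strand at chr5:167942935-167943234 and Pls1 on the minus strand at chr8:105229290-105229589.
Actg1: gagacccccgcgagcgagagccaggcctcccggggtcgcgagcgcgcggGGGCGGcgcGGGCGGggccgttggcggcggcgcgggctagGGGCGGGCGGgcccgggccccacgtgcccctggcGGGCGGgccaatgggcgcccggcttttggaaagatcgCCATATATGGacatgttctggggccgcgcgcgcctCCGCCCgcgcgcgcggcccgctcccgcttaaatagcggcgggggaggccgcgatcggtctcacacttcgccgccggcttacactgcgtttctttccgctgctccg
Cdhr5: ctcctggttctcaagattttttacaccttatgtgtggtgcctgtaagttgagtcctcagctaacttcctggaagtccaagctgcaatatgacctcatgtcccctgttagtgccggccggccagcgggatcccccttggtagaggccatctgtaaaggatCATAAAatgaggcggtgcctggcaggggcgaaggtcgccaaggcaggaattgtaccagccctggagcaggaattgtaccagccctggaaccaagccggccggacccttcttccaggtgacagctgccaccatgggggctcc
Espn: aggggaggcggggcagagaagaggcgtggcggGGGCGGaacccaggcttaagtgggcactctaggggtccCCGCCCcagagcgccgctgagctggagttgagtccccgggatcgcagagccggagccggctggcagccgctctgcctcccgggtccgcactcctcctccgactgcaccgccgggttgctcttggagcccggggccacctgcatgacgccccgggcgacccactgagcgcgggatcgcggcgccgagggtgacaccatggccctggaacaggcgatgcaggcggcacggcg
Pls1: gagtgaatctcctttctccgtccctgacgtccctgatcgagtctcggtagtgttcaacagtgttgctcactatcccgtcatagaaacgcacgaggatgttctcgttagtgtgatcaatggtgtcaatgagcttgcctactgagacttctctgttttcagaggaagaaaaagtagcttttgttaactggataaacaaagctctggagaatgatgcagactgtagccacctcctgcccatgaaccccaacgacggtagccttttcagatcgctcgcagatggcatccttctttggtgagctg

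The Actg1 window holds a CArG box, the motif that serum response factor binds in actin promoters, with its first base at position -90 from the start. A CArG box was found in 1.64% of all 33469 windows on either strand. GC boxes (GGGCGG on either strand) stand in the windows of Actg1, Espn, Vil1, Ezr and Cdhr2, that is in 5 of 8, against 33.1% of all windows. The Cdhr5 window has TTTATG, a motif of the CDX family, on the opposite strand at position -91, as 12.7% of all windows do. None of the 8 windows has the heat shock element searched for on either strand (GAA, NN, TTC, NN and GAA in a row), which 0.798% of all windows hold. TATAAA (14.2% of all windows) and AGATAA (11.6%) were also absent from the 8, and GTTAAT (7.45%) was found in Cdhr2 alone. The Pls1 window holds none of the motifs. A long stretch of it can be read as protein-coding codons without a stop, so it may not be the Pls1 promoter. These matches describe letters only.

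The group labels of the deposited sources did not match. Each of the 6 columns of the deposited normalized table matches a scanner file that the labels put in the opposite group, at the same replicate number (Spearman's rho was at least 0.999999, and 0.942 to 0.952 with the column's own file). No sample was reassigned, and every difference below is the mean of the 3 arrays that the scanner files label S3d, less the mean of the 3 labelled control. If the same values are read by the labels of the table, the differences carry the opposite sign, so which treatment is the higher one is not settled. The table is also normalized in another way, and in it Vil1 (-0.24) and Actb probe A_44_P423803 (-0.052) kept the sign given below. The 6 arrays were on 2 slides scanned 450 days apart, with 1 group per slide, and slide, scan and group cannot be told apart. The arrays labelled S3d were brighter, with a 75th percentile of the processed signal of 1458 to 1558 against 415 to 430.0, and 77.5 to 81.5% of their spots were well above background against 69.1 to 73.7%. Values are given as log2 of the signal over the 75th percentile of the same array, which is called the level below.

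All 9 member probes were well above background on all 6 arrays, with no saturated spot and no outlier. All 9 passed the threshold of limma, an adjusted p under 0.05, with 7 probes lower and 2 higher on the arrays labelled S3d. Over the whole array 74% of the 31365 probes tested passed it, 34.5% lower and 39.5% higher, so a call by itself says little about a member. The 2 groups of arrays did not overlap for any of the 9 probes, as for 78.3% of all probes tested. The median difference was -0.85 over the 9 member probes and 0.085 over all probes tested. With a fold change of at least 1.5 added, 6 of the 9 passed, 5 lower and 1 higher, against 52.5% of all probes tested, 23.3% lower and 29.2% higher. Of all probes changed by this rule 55.7% were higher, a share that was 44.7% when each array was centred on its median.

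**Figure D1:**
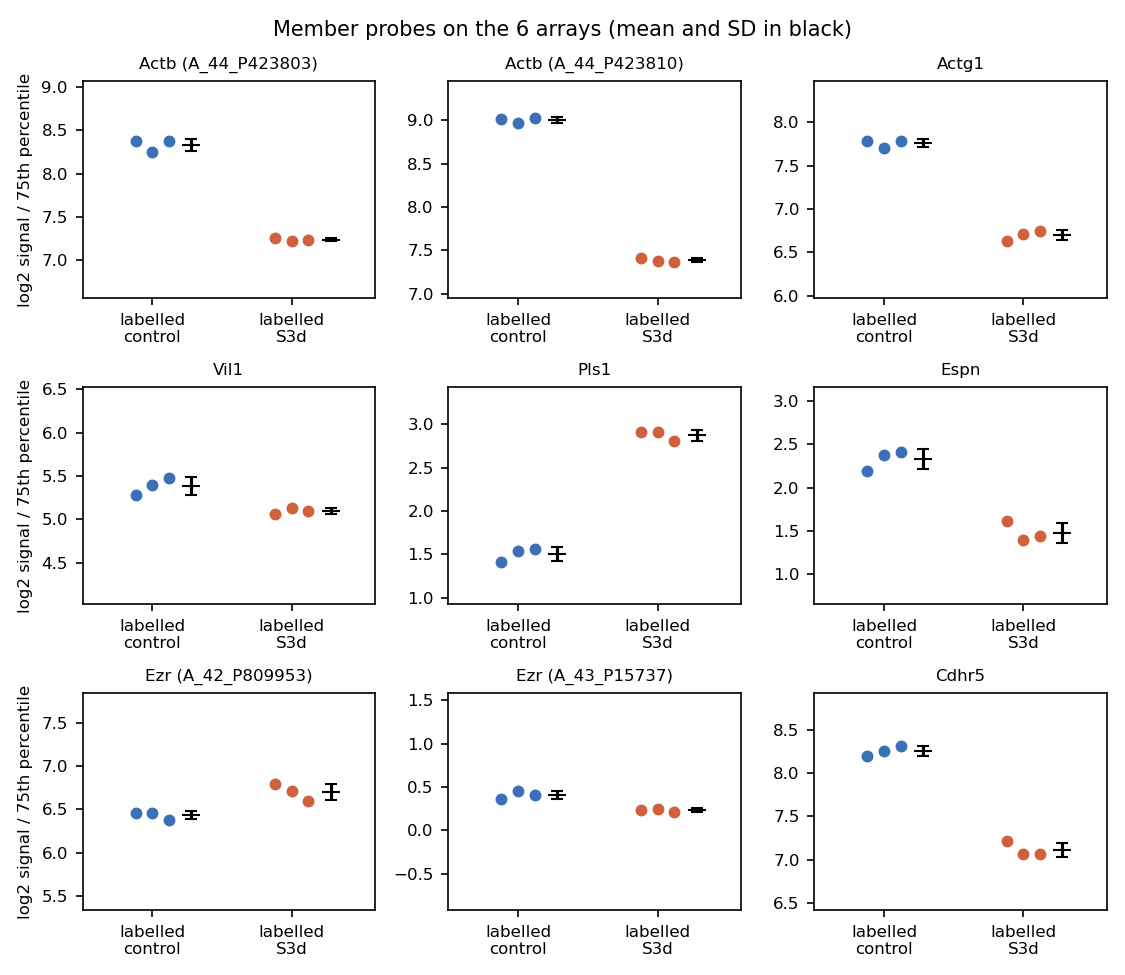
Level of the 9 member probes on each array, as log2 of the processed signal over the 75th percentile of the array, with the mean and SD of 3 arrays per group in black. All panels span the same range of log2 units. The Actb, Actg1, Espn and Cdhr5 probes sit lower on the arrays labelled S3d, the Pls1 probe sits higher, and the Vil1 and Ezr probes are closer together.

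Among the proteins that bundle the core, Pls1 differed the most. Its level was 1.41, 1.54 and 1.56 on the control arrays and 2.91, 2.91 and 2.80 on the S3d arrays, that is 1.51 ± 0.080 against 2.88 ± 0.063 (mean ± SD, n = 3 each). Every control array lay below every S3d array, and the difference was far larger than the SD of either group. The log2 difference was 1.37 (SE 0.073, adjusted p = 2.52e-05 by limma), or 2.59-fold. Pls1 was the only member with a large difference in this direction at this scaling. After quantile normalization (below) the brighter Ezr probe was higher by 1.04 as well.

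Espn, another bundler of the core, went the other way. Its level was 2.20, 2.38 and 2.42 on the control arrays and 1.61, 1.39 and 1.44 on the S3d arrays. The groups did not overlap, and the log2 difference was -0.85 (SE 0.095, adjusted p = 0.000375 by limma), a 1.80-fold lower level. Vil1, the bundler that marks absorptive epithelium, was at 5.28, 5.39 and 5.48 on the control arrays and 5.06, 5.13 and 5.09 on the S3d arrays. This was a small difference, -0.29 (SE 0.074, adjusted p = 0.0122 by limma), or 1.23-fold, and its sign depended on the normalization, as given below.

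Both cytoplasmic actins were lower on the arrays labelled S3d at this scaling. The Actg1 probe and Actb probe A_44_P423803 were not called after quantile normalization, as given below. The Actb probe A_44_P423810 had levels of 9.02, 8.97 and 9.03 on the control arrays and 7.41, 7.38 and 7.37 on the S3d arrays. The difference was -1.62 (SE 0.057, adjusted p = 1.24e-05 by limma), or 3.07-fold, the largest of the 9 probes at this scaling. The second Actb probe, A_44_P423803, is printed in 10 spots per array, whose signals varied by 2.27 to 3.99% (CV) within an array. It had levels of 8.38, 8.26 and 8.38 against 7.25, 7.22 and 7.24, a difference of -1.10 (SE 0.064, adjusted p = 3.29e-05 by limma) or 2.14-fold. The Actg1 probe was at 7.79, 7.70 and 7.79 against 6.63, 6.71 and 6.75, a difference of -1.06 (SE 0.065, adjusted p = 3.85e-05 by limma) or 2.09-fold. The groups were far apart for each actin probe, with SDs of 0.015 to 0.070 within a group. Actin transcripts are close to each other in sequence, and cross-hybridisation between them was not tested.

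Ezr, the linker between filaments and membrane, gave no single answer. Its brighter probe, A_42_P809953, was at 6.46, 6.46 and 6.38 on the control arrays and 6.79, 6.71 and 6.60 on the S3d arrays, a difference of 0.27 (SE 0.074, adjusted p = 0.0176 by limma) or 1.20-fold. Its dimmer probe, A_43_P15737, was at 0.36, 0.45 and 0.40 against 0.23, 0.25 and 0.21, a difference of -0.18 (SE 0.059, adjusted p = 0.0352 by limma). At this scaling the probes pointed in opposite directions, both by little, and their mean differed by 0.045 (adjusted p = 0.492 by limma). The size for the brighter probe depended on the normalization, as given below. The call of the brighter probe was lost without control replicate 3 (0.24, adjusted p = 0.0549 by limma) and without S3d replicate 2 (0.26, adjusted p = 0.0535 by limma). The call of the dimmer probe was lost when any array other than control replicate 1 was left out, with differences from -0.20 to -0.15 and an adjusted p of up to 0.109 by limma.

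Cdhr5, the protocadherin of the microvillus tips, had levels of 8.20, 8.26 and 8.31 on the control arrays and 7.21, 7.06 and 7.06 on the S3d arrays. The difference was -1.15 (SE 0.073, adjusted p = 4.33e-05 by limma), or 2.21-fold lower. At this scaling its size was close to that of the Actg1 probe and of the Actb probe with 10 spots, and its groups were as clearly apart. After quantile normalization Cdhr5 differed by -0.027 and its groups overlapped. In whole jejunum, fewer cells of a type and less RNA per cell cannot be told apart for this or any other member.

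The difference varied with the brightness of a probe over the whole array. When the tested probes were divided into 10 classes by mean level, the median difference went from 1.28 in the dimmest class to -0.49 in the brightest, in which 65.0% of the probes were called lower and 15.9% higher. The filter let in 3576 probes through the S3d arrays only and 739 through the control arrays only, which can raise the medians of dim classes. Among probes well above background on all 6 arrays the overall median was -0.025. Of the 100 brightest probes, 99 were lower, with a median of -1.28. The Actb, Actg1, Vil1 and Cdhr5 probes and the brighter Ezr probe belong to the brightest class, the Pls1 and Espn probes to the next one, and the dimmer Ezr probe to the one below that.

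Read within their class, the members spread out. The middle 80% of the brightest class ran from -1.41 to 0.42. The Actb probe A_44_P423810 lay below this range, with 6.38% of the class more negative. Actg1, the other Actb probe and Cdhr5 lay inside it, with 20.5%, 19.2% and 17.3% of the class more negative, and so did Vil1 with 61.0% and the brighter Ezr probe with 85.4%. Pls1 lay above the middle 80% of its own class (-1.14 to 0.82), with 96.5% of the class more negative, and Espn lay inside it with 17.5%. Pls1 was therefore in the upper tail of probes of like brightness, whereas the lower levels of Cdhr5, Actg1 and Espn were shared with 17.3 to 20.5% of such probes. The part of brightness in the differences of single members was not tested.

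**Figure D2:**
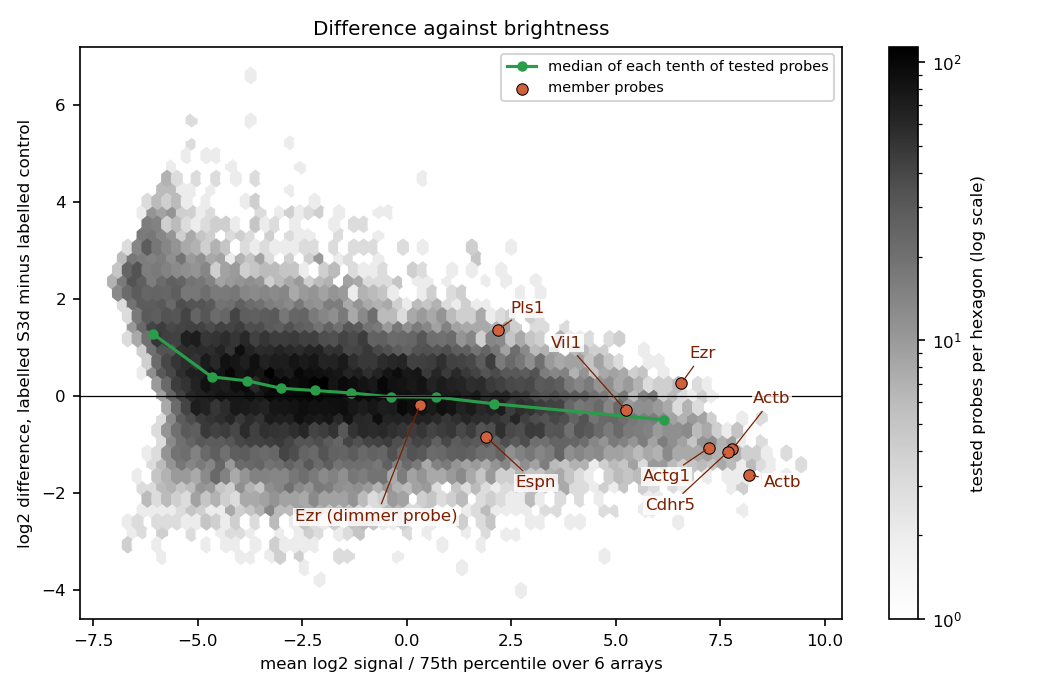
Log2 difference (labelled S3d minus labelled control) against the mean level over 6 arrays for 31365 tested probes, in hexagons shaded by the number of probes on a log scale. Green points are the median of each of 10 brightness classes and fall from 1.28 to -0.49; orange points are the 9 member probes, of which Pls1 stands above and the brighter Actb probe below the middle 80% of probes of like brightness.

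The processed signal before any scaling was higher on the arrays labelled S3d for all 9 probes. For Actb probe A_44_P423810 it was 214266 to 224058 on the control arrays and 247512 to 258967 on the S3d arrays. For Vil1 it was 16129 to 19230 and 48567 to 54495, and for Pls1 it was 1105 to 1270 and 10884 to 11733. The unscaled log2 difference was 3.22 for Pls1, 1.55 for Vil1 and 0.23 for this Actb probe, and the median over all tested probes was 1.93. The lower levels of Actb, Actg1, Espn, Vil1 and Cdhr5 are thus lower than the bulk of the array, not lower in signal. The E1A spike-ins, control transcripts added in fixed amounts that Agilent prints in 32 spots each, differed by -0.85 to -0.32 for the 6 brighter of 10 probes, so the signal of these 6 was not higher on the S3d arrays. The dimmer ones ran from -0.39 to 3.50, the last for the probe that was dimmest on the control arrays.

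Quantile normalization, which gives every array the same distribution, left 5 of the 9 member probes called, 2 lower and 3 higher, against 70.6% of all probes tested, 35.4% lower and 35.2% higher. Pls1 then differed by 1.54 (adjusted p = 2.56e-05 by limma), the brighter Ezr probe by 1.04 (adjusted p = 4.93e-05 by limma), Espn by -0.74 (adjusted p = 0.000794 by limma) and Actb probe A_44_P423810 by -0.36 (adjusted p = 0.00383 by limma). The other Actb probe was at 0.033, Actg1 at -0.17, Cdhr5 at -0.027 and the dimmer Ezr probe at -0.16, and none of these 4 was called. Vil1 changed sign, to 0.24 (adjusted p = 0.0486 by limma). In the deposited table, by its own labels, Pls1 differed by -1.53, Espn by 0.73, the brighter Ezr probe by -1.07, Vil1 by -0.24 and Actb probe A_44_P423810 by 0.35, each called, and the other 4 probes were not, against 70.1% of all probes called. Pls1 and Espn thus kept opposite directions under both normalizations and in the table.

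**Figure D3:**
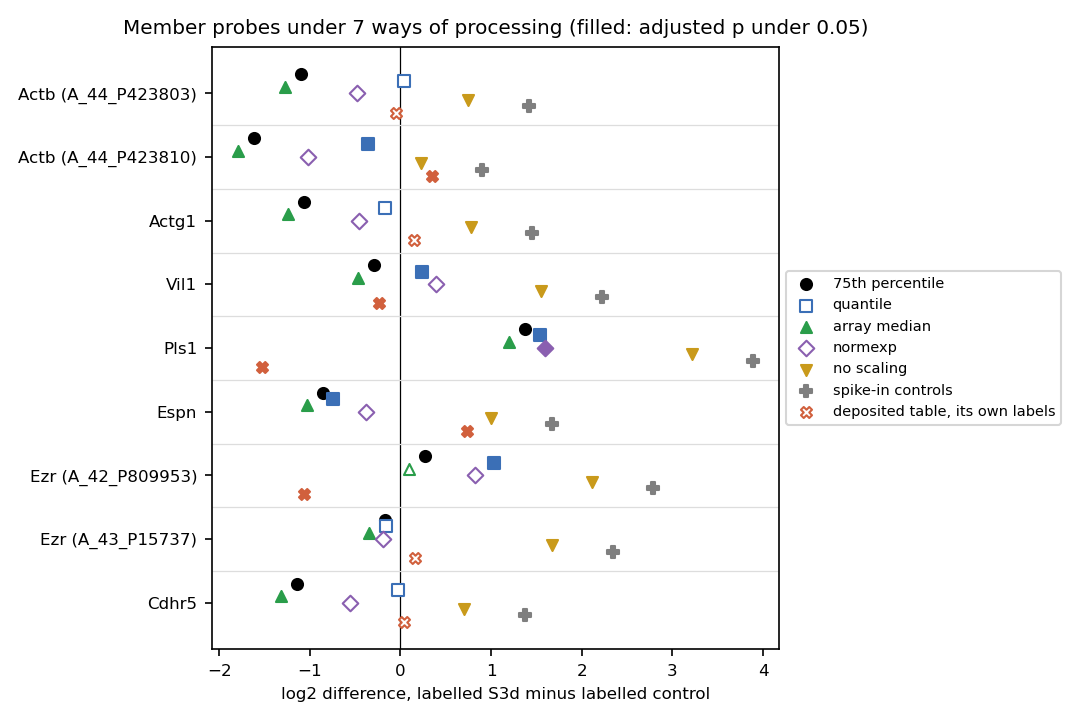
Log2 difference of the 9 member probes (labelled S3d minus labelled control) under 7 ways of processing; filled symbols have an adjusted p under 0.05 by limma. Pls1 is to the right of 0 in each one made from the scanner files and to the left of 0 by the labels of the deposited table, and Vil1 lies on either side of 0.

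Ratios within an array do not depend on a scaling constant, though they do depend on a normalization that bends with brightness, and the members were also set against Vil1, an absorptive epithelial gene. On this scale 72.7% of all probes tested were called, 22.2% lower and 50.6% higher, and 7 of the other 8 member probes were called. Pls1 was higher relative to Vil1 by 1.67 (SE 0.087, adjusted p = 1.15e-05 by limma), with a log2 ratio of -3.88 ± 0.035 on the control arrays and -2.22 ± 0.071 on the S3d arrays (SD, n = 3 each). Cdhr5 was lower by 0.85 on the log2 scale (difference -0.85, adjusted p = 0.000234 by limma), Actg1 differed by -0.77 (adjusted p = 0.000368 by limma), the Actb probes by -0.80 (adjusted p = 0.000344 by limma) and -1.33 (adjusted p = 3.16e-05 by limma), and Espn by -0.56 (adjusted p = 0.0025 by limma). The probes of the 3 bundlers of the core thus differed unequally, Pls1 upwards and Espn downwards against Vil1. Each bundler was read by 1 probe, and 80.1% of probe pairs of the same gene also differed. Unequal probes therefore do not by themselves show unequal change of these genes. Under normexp background correction (described below) neither was called against Vil1 (Pls1 1.20, adjusted p = 0.0713, and Espn -0.77, adjusted p = 0.137, by limma). The brighter Ezr probe was higher relative to Vil1 by 0.56 (adjusted p = 0.00354 by limma). The dimmer one differed by 0.12 (adjusted p = 0.271 by limma), with a 95% confidence interval of -0.10 to 0.33. The villus enterocyte markers described further on had a median of -0.73 relative to Vil1, close to the values of Cdhr5 and Actg1. Their mean levels on the control arrays ran from 1.55 for Lct to 10.1 for Apoa4, and bright probes were mostly lower over the whole array. Whether this likeness goes beyond brightness was not tested. With quantile normalization 6 of the 8 member probes were called against Vil1. The share of all probes called in that setting was not counted, so this number says little about the members. Cdhr5 (-0.26, adjusted p = 0.0649 by limma) and Actb probe A_44_P423803 (-0.20, adjusted p = 0.142 by limma) lost their calls, and the dimmer Ezr probe turned to -0.39 (adjusted p = 0.0129 by limma).

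Against the brighter Actb probe, the gene that served as RT-PCR reference, all 8 other member probes were higher on the arrays labelled S3d, as were 91.9% of all probes tested (2.84% were lower and 94.7% called in either direction). The differences ran from 0.47 for Cdhr5 (adjusted p = 0.000635 by limma) to 2.99 for Pls1 (adjusted p = 9.29e-07 by limma). Vil1 was higher by 1.33 on this scale and Espn by 0.77. With quantile normalization 6 of the 8 were called, of which Espn had turned to -0.38 (adjusted p = 0.0308 by limma), while Actg1 (0.19, adjusted p = 0.0585 by limma) and the dimmer Ezr probe (0.20, adjusted p = 0.0794 by limma) lost their calls. The share of all probes called against Actb in that setting was not counted. Scaled to the 75th percentile, Espn, Cdhr5, Actg1, Vil1 and the dimmer Ezr probe thus had one sign against the bulk of the array and the other against beta-actin.

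**Figure D4:**
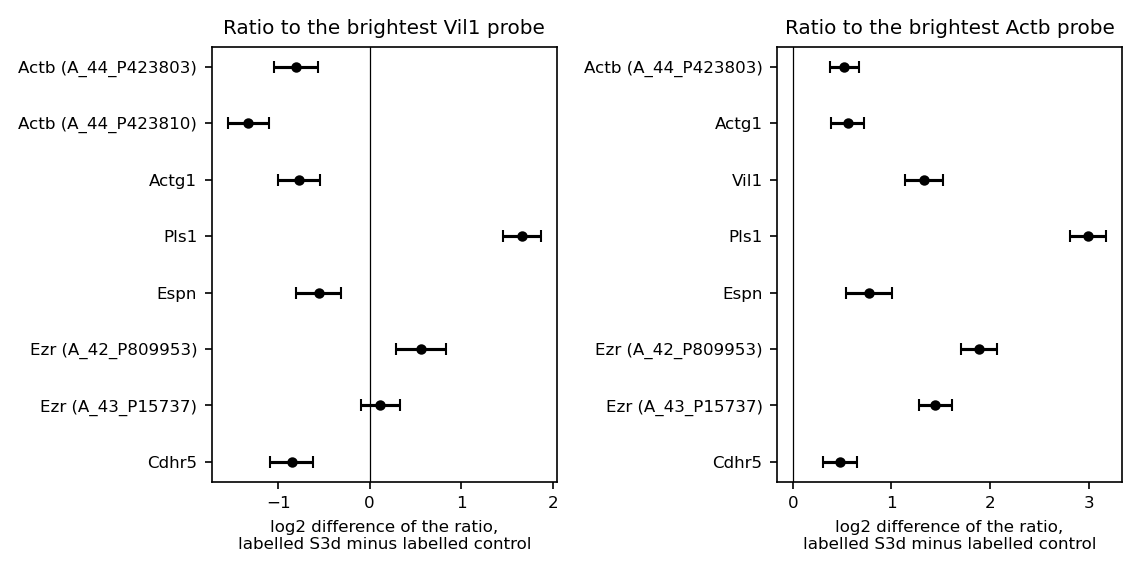
Log2 difference, labelled S3d minus labelled control, of the ratio of each member probe to the Vil1 probe (left) and to the brighter Actb probe (right), with 95% confidence intervals from limma. Pls1 is farthest to the right in both panels, at 1.67 and 2.99, and against Actb all 8 probes lie to the right of 0.

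The 2 probes of a gene can be compared in the same way. The brighter Actb probe differed by -0.52 from the other one (SE 0.051, adjusted p = 0.000135 by limma), so both were lower but by unequal amounts. The brighter Ezr probe differed by 0.44 from the dimmer one (SE 0.068, adjusted p = 0.00107 by limma). Quantile normalization gave -0.39 for the Actb pair (adjusted p = 0.000394 by limma) and 1.19 for the Ezr pair (adjusted p = 8.93e-06 by limma). Over the array, 80.1% of 3237 such pairs in 2626 genes differed between the groups, so unequal probes of a gene were common here.

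Genes that work beside the members were read from lists, each gene by its brightest probe and as levels against the 75th percentile. Genes named beyond the lowest and highest of a list were named after their values were seen. Of the partners of the protocadherin complex, 3 of 4 had a probe. Calml4, a calmodulin-like light chain, differed by -1.11 (adjusted p = 3.37e-05 by limma) and the motor Myo7b by -0.69 (adjusted p = 0.00018 by limma), while the scaffold Anks4b was higher by 0.43 (adjusted p = 0.00361 by limma). Calml4 and Myo7b thus had the direction of Cdhr5, and Anks4b did not. After quantile normalization Calml4 (-0.34), Myo7b (-0.68) and Anks4b (0.47) were still called, while Cdhr5 (-0.027) was not. No probe was matched to Ush1c.

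Among 7 ERM proteins, scaffolds and kinases, 4 were lower and none was higher, with a median of -0.31. The lowest was moesin (Msn, -1.85, adjusted p = 4.57e-05 by limma), and the kinase Slk (-1.63), the scaffold Nherf1 (listed as Slc9a3r1, -0.45) and the scaffold Pdzk1 (-0.31) were the other 3. The highest value of the list was 0.076 for Slc9a3r2, which was not called. The Msn probe was well above background on 5 of 6 arrays. With quantile normalization Pdzk1 was at -0.016 and not called, which left 3 lower. Of 6 further bundlers and actin assembly proteins, Eps8l3 was lower (-0.58, adjusted p = 0.000518 by limma), Eps8l1 was higher (0.66, adjusted p = 0.0173 by limma), and 4 were not called, with a list median of -0.039. The plastins that are not specific to this epithelium, Pls3 (0.040) and Lcp1 (-0.21), were among those 4, and Pls1 was the only plastin called. With quantile normalization Eps8l3 (0.19, adjusted p = 0.0731 by limma) and Eps8l1 (0.28, adjusted p = 0.152 by limma) were not called, and Lcp1 (-0.32, adjusted p = 0.0179 by limma) and Fscn1 (-0.77, adjusted p = 0.0235 by limma) were lower.

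Of 4 other brush border myosins, Myo1d (-1.36, adjusted p = 3.71e-05 by limma) and Myo1e (adjusted p = 5.71e-05 by limma) were lower, and Myo1c (0.43, adjusted p = 0.0395 by limma) and Myo5b (0.28) were higher. Myo1c lost its call with quantile normalization (0.23, adjusted p = 0.229 by limma). Of 7 genes of the terminal web, the filament mesh under the microvilli, 4 were lower and 2 higher, from -1.28 for the keratin Krt20 (adjusted p = 4.69e-05 by limma) to 0.90 for the myosin heavy chain Myh14 (adjusted p = 0.000476 by limma). With quantile normalization the balance of this list turned, to 1 lower and 5 higher with a median of 0.45 against -0.32, and Krt20 was at -0.010 (adjusted p = 0.902 by limma). Of 3 muscle actins, Actc1 was higher by 3.04 (SE 0.30, adjusted p = 0.000223 by limma), while Acta1 (0.33) and Actg2 (0.31) were not called. With quantile normalization Actg2 was called too (0.97, adjusted p = 0.00044 by limma). Of 7 genes often used as RT-PCR references, 5 were lower and none was higher, from -2.04 for B2m (adjusted p = 1.22e-05 by limma) to -0.13 for Tbp, which was not called. With quantile normalization 3 of these were lower and 1 was higher.

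Markers of the cell types in the jejunum differed between the groups in several directions. Of 10 villus enterocyte markers, 8 were lower and 1 was higher, with a median of -1.03, from -1.64 for the fatty acid binding protein Fabp1 to 0.66 for lactase (Lct). Their summed level, on a linear scale relative to the 75th percentile, was 3655 to 4073 on the control arrays and 1578 to 1641 on the S3d arrays. With quantile normalization the median of the list was -0.048, with 2 markers lower and 2 higher. All 10 were well above background on all 6 arrays, so the absorptive markers of the labelled tissue were present, and Sis had no matched probe.

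Of 8 smooth muscle markers, 4 were lower and 2 higher (median -0.52, from -1.19 for Des to 0.98 for Myh11), and their summed levels overlapped between the groups, at 151 to 183 and 143 to 164. Of 8 leukocyte markers, 6 were lower and 1 higher (median -0.45, from -2.64 for Ptprc to 0.97 for Itgam), with summed levels of 51.2 to 56.1 and 34.9 to 36.6. Of 5 crypt and proliferation markers, 1 was lower and 4 were higher (median 0.46, from -0.53 for Cdk1 to 2.87 for Olfm4), with summed levels of 40.8 to 44.4 and 46.9 to 48.3. Of 3 goblet and Paneth cell markers, 2 were lower (median -0.67, from -2.13 for Tff3 to -0.084 for Lyz2), with summed levels of 825 to 830.5 and 264 to 273, and Defa5 was not well above background. Of 6 fibroblast markers, 2 were lower and 2 higher (median -0.046, from -0.53 for Dcn to 1.52 for Col1a1), with summed levels of 142 to 156 and 150.1 to 165. With quantile normalization the smooth muscle list had 4 lower and 3 higher (median -0.31), the leukocyte list 6 lower and 2 higher (-0.46), the crypt list 0 lower and 3 higher (0.68), the goblet and Paneth cell list 1 lower and 1 higher (0.060), and the fibroblast list 0 lower and 4 higher (0.36). The part of the cell type makeup in the member values was not tested.

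**Figure D5:**
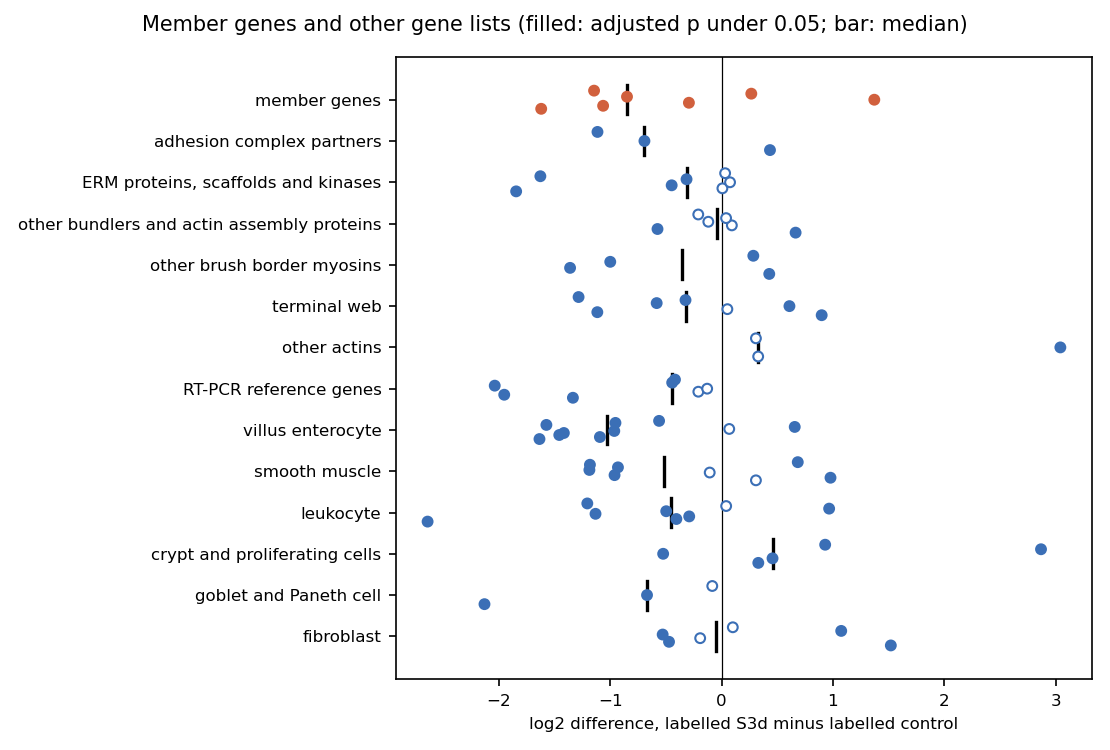
Log2 difference (labelled S3d minus labelled control) of the 7 member genes and of the genes of each list, 1 point per gene by its brightest probe, with the list median as a bar; filled points have an adjusted p under 0.05 by limma. The member genes run from -1.62 for Actb to 1.37 for Pls1, with the villus enterocyte list at a median of -1.03.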

How the data were processed

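Jejunum RNA was hybridised to 1-colour Agilent rat arrays. For each array the authors deposited scanner output written by Agilent Feature Extraction 10.7.3.1. Its intensity values used here are processed signals, which that program corrects for background without scaling arrays to each other. A table of log2 values for 41105 probes was also deposited. Its sorted columns differ by at most 0.0025, so it had been quantile-normalized, and its group labels are exchanged against those of the scanner files.

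Outlier-flagged spots and control features were dropped, repeated spots of a probe were averaged, and the 75th percentile of the array was subtracted on the log2 scale. A probe was tested if the 3 arrays of either group all had it well above background, which held for 31365 probes (739 through the control arrays only and 3576 through the S3d arrays only). The test was limma 3.58.1 (lmFit, eBayes) under R 4.3.3, two-sided, with Benjamini-Hochberg adjustment over these probes, and a probe was called at an adjusted p under 0.05. The number of arrays limits the precision. Probes were assigned to genes through their accession and a RefSeq gene table of another build (GRCr8), used for names only. On simulated data for 31137 probes, with 200 changed by 1 log2 unit, 72% of these were recovered, 144 with the right sign, with 11 false calls.

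Alternatives were quantile, median and no scaling, normexp (offset 50, on the median signal, since no mean signal column was used), a stricter and no filter on dim probes, keeping outlier spots, values of the deposited table, a replicate block, an intensity trend, array weights, the analysis of variance of the methods, the study's threshold (unadjusted p under 0.01 and a fold of 1.5), and leaving out each array. Scaling on the E1A spike-ins and normexp on 5 arrays were added after seeing the data. The slide could not be used as a block, since no slide holds both groups. All probes of the members were named, and of each list the lowest and the highest gene. The members and lists were chosen with earlier results of these data known. Same-numbered arrays did not deviate together. Figures were drawn with matplotlib 3.10.9 in Python 3.11.15.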

Additional observations from a re-analysis of the deposited data

How the results depend on the processing

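The call on the level of Pls1 held under every alternative run, and its sign turned only with the labels of the deposited table. Scaling moved the other members. Over the whole array 16451 probes were changed (fold of at least 1.5), 55.7% of them higher. Without scaling (96% of all probes called) 28898 were changed, 98.8% higher, the median of all probes was 1.93, and 0 member probes were lower and 9 higher, with Actb at 0.75 and 0.23, Actg1 0.78, Vil1 1.55, Espn 1.00, the dimmer Ezr probe 1.67 and Cdhr5 0.70. With E1A scaling (median 2.60, 97.9% called) 30563 were changed, 99.7% higher, again with 0 and 9 members, and these values were 1.42, 0.90, 1.45, 2.22, 1.67, 2.34 and 1.37. Against these medians Pls1 and the brighter Ezr probe alone were higher than the bulk. Median centring gave a median of -0.092, with 44.7% of the changed probes higher. It called 7 member probes lower and 1 higher, since the brighter Ezr probe was not called, against 41.3% and 32.6% of all probes.

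Quantile normalization called 5 members, 2 of them lower, and turned Actb probe A_44_P423803 (0.033), Vil1 (0.24), the dimmer Ezr probe against Vil1 (-0.39) and Espn against Actb (-0.38). Normexp changed 1752 probes, which is also the number called (5.59%), 31% of them higher (median -0.69), and called 1 member probe (0 lower, 1 higher), 1 member gene, 1 member against Vil1, 3 against Actb and 929 probe pairs. The shares of all probes that normexp called against Vil1 and Actb were not counted. Vil1 was at 0.39 and the dimmer Ezr probe against Vil1 at -0.58. Its fit gave control array 3 a background mean of -841, against -12.8 to -5.51 on the other 5 arrays. Without that array 16187 probes were changed, 20.1% higher, 8 members were called (78% of all probes), and the reversed values were a median of -0.43, Vil1 at 0.024 and the dimmer Ezr probe against Vil1 at -0.25.

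In the deposited table, by its own labels, 5 members were called, 3 lower. The differences of turned sign were Actb A_44_P423810 0.35, Actg1 0.15, Pls1 -1.53, Espn 0.73, Ezr -1.07 and 0.16, and Cdhr5 0.039. Against Vil1 they were 0.19 and 0.59 for Actb, 0.39 for Actg1, -1.29 for Pls1, 0.97 for Espn, -0.82 for the brighter Ezr probe and 0.28 for Cdhr5, and against Actb -0.40 for its other probe, -0.20 for Actg1, -0.59 for Vil1, -1.88 for Pls1, -1.42 and -0.19 for Ezr and -0.31 for Cdhr5. The probe differences were 0.40 for Actb and -1.22 for Ezr.

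The replicate numbers did not pair the arrays, with correlations of 0.0204, 0.0216 and -0.0491 between same-numbered arrays. With the replicate number as a block 16314 probes were changed, and among the members the dimmer Ezr probe lost its call (-0.18, adjusted p = 0.081 by limma). Leaving out 1 array gave 15983 to 16454 changed probes and 21444 to 22812 called probes over the whole array. Of the members 7 to 9 probes were called, 6 to 7 lower and 1 to 2 higher, with 1 higher without control replicate 3 or S3d replicate 2. Without a filter on dim probes the dimmer Ezr probe had an adjusted p of 0.0638 by limma. Where no value is given for a cause, the cause was not tested.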
